A study of Mus musculus with 5 samples.

Results

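Oxidative phosphorylation (OXPHOS) was described complex by complex and mouse by mouse in dorsal skin of *Clock* mutants, through 44 nuclear genes that encode subunits of the respiratory chain and of ATP synthase. Of these, 21 belong to complex I, 4 to complex II, 6 to complex III, 7 to complex IV and 5 to complex V, and *Cycs* encodes cytochrome c. Each gene was read from its brightest probe set, the array feature with the highest mean log2 intensity over the 5 arrays, among probe sets that carry that gene's symbol alone. By this rule 43 of the 44 genes had a probe set, out of 18193 genes named in the same way, and all 43 passed the filter on dim probe sets that 12955 genes passed. *Cox7b*, a small complex IV subunit, was not analysed here.

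The mice were 2 *Clock* mutants and 3 wild-type (WT) littermates at postnatal day 23 (P23), with 1 array of total RNA per mouse, and the *Clock* colony was on the C57BL/6J background. *Clock* encodes the transcription factor that pairs with BMAL1 to drive the circadian clock. The labels call the animals mutant without giving zygosity or the hour of collection. The skins are described as telogen, when the follicles rest, whereas the study's time course of other mice classed P23 as early anagen. The male among the 5 mice was *Clock* mutant replicate 1. The purpose of the comparison was to look for molecular differences between the genotypes just before the delayed hair growth of *Clock* mutant mice becomes visible.

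Complex I passes electrons from NADH, and complex II those from succinate, through ubiquinone to complex III, from which cytochrome c carries them to complex IV and on to oxygen. Complexes I, III and IV pump protons across the inner mitochondrial membrane, and complex V uses the returning protons to make ATP. Most of the subunits are encoded in the nucleus and a core set in the mitochondrial genome. Complexes I, III, IV and V are thus built from both sources, and complex II from nuclear genes alone. In skin these genes are expressed in every nucleated cell type, with high levels in muscle fibres, and whole-skin RNA cannot tell more cells of a type from more RNA per cell.

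The promoters of the genes are shown first because nuclear OXPHOS genes are known for sharing sites for the NRF1, ETS family (GABP), YY1 and Sp1 factors. Promoters, from 250 bases before to 50 after the annotated start, were found for 32 of the 43 genes in RefSeq (GRCm38.p6), and the other 11 were *Ndufs1*, *Ndufa2*, *Ndufb9*, *Sdhc*, *Uqcrb*, *Uqcrc2*, *Uqcrq*, *Cyc1*, *Cox4i1*, *Cox6c* and *Atp5a1*. The 3 printed here belong to genes described below array by array, and hold the most matches among those, with ties settled by the smaller p. They lie on GRCm38.p6 at chr4:140961021-140961320 on the plus strand for *Sdhb*, at chr9:50603800-50604099 on the minus strand for *Sdhd* and at chr9:57520982-57521281 on the plus strand for *Cox5a*. Capitals mark the matches on either strand.
Sdhb: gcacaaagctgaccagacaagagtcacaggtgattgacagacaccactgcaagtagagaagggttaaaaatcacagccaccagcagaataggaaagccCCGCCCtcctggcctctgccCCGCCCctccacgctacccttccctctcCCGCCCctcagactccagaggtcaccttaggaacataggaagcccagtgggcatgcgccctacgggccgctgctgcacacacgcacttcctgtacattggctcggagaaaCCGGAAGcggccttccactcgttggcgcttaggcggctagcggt
Sdhd: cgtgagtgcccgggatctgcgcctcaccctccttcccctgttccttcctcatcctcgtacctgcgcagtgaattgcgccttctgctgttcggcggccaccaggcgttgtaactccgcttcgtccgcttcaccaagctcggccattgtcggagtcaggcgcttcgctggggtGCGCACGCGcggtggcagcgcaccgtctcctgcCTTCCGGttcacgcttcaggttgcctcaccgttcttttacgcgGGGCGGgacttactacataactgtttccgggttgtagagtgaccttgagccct
Cox5a: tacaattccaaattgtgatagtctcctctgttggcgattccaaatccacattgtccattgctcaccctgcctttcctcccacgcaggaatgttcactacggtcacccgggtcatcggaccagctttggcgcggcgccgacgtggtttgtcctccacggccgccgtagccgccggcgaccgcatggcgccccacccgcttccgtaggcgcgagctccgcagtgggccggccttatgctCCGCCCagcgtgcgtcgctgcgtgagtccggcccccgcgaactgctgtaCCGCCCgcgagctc

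*Sdhb* held 3 Sp1 matches and 1 ETS match, *Sdhd* held 1 match each for NRF1, ETS and Sp1, and *Cox5a* held 2 Sp1 matches. Counted per gene on both strands, the NRF1 motif (GCGCATGCG or GCGCACGCG) was in the promoters of 7 of the 32 genes, or 21.9%, against 3.8% of all 27025 genes with a promoter of that length. The holders were *Ndufa6*, *Ndufa8*, *Sdhd*, *Uqcrc1*, *Cycs*, *Atp5c1* and *Atp5o*. The YY1 motif (AAGATGGC) was in 12.5% of the members against 3.2% of all genes. Its 4 holders, *Ndufa9*, *Ndufb8*, *Ndufs4* and *Ndufs7*, were complex I genes, as were most of the 32 genes with a promoter. The ETS motif (CCGGAAG) was in 15.6% against 9.9%, and the Sp1 motif (GGGCGG) in 43.8% against 38.2%. The E-box CACGTG, to which CLOCK and BMAL1 bind, was in the window of *Ndufv1* alone, or 3.1%, against 8.1% of all genes. In the members 1 pair of different motifs overlapped. These letters are a description of the windows and not of binding.

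All 43 genes had a higher mean log2 intensity in *Clock* mutant than in WT skin, by 0.029 to 0.37 on the log2 scale, or 2.01% to 29.1%, with a median of 0.16 (11.5%). Over all probe sets 46.5% had a difference above 0, and the median difference was -0.017. No gene passed the adjusted threshold of 0.05 in limma, where 24 of 27022 probe sets (0.0888%) passed in either direction. At an unadjusted p under 0.05, 11 of the 43 genes were higher and 0 lower, against 4.09% of all probe sets in the higher direction. A Cyber-T style test gave 8 at that level, against 2.52% of all probe sets in the higher direction, and 0 after adjustment. Standard errors of the members lay between 0.073 and 0.133 with a median of 0.088, and for 7 genes the error was larger than the difference.

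The members are bright genes, so they were also read against the 2030 probe sets whose mean intensity lay within the range of the members, 3246 to 16860. There 56.9% of probe sets had a difference above 0, with a median of 0.025, and 7.29% were at an unadjusted p under 0.05 in the higher direction. Both mutant arrays lay above every WT array for 14 of the 43 genes, against 12.8% of all probe sets and 18.4% of those in the intensity range. These 14 genes were 9 of complex I, *Sdhd*, *Uqcrfs1*, *Uqcrq*, *Cox6b1* and *Atp5o*.

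The mutant mice differed from each other. *Clock* mutant replicate 1 had the highest intensity of the 5 arrays for 41 of the 43 genes, against 23.5% of all probe sets and 37.3% of those in the intensity range. Its median over the genes was 0.27 above the WT mean on the log2 scale, and that of *Clock* mutant replicate 2 was 0.048. WT replicates 1, 2 and 3 had medians of -0.0086, -0.066 and 0.081, so that *Clock* mutant replicate 2 lay between WT replicates 1 and 3. For 26 genes *Clock* mutant replicate 2 was within the WT range, for 14 it was above every WT array, against 25.7% of all probe sets, and for *Ndufv1*, *Sdha* and *Uqcrc1* it was below every WT array. Among the WT arrays replicate 3 was the highest for 36 genes, against 32.5% of all probe sets and 46.4% of those in the intensity range. WT replicate 2 was the lowest of the 5 arrays for 31 genes, against 19.1% and 32.8%. The order of the array medians, which was taken from these same genes, held gene by gene for 14 of the 43 genes and for 278 of all 27022 probe sets.

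**Figure D1:**
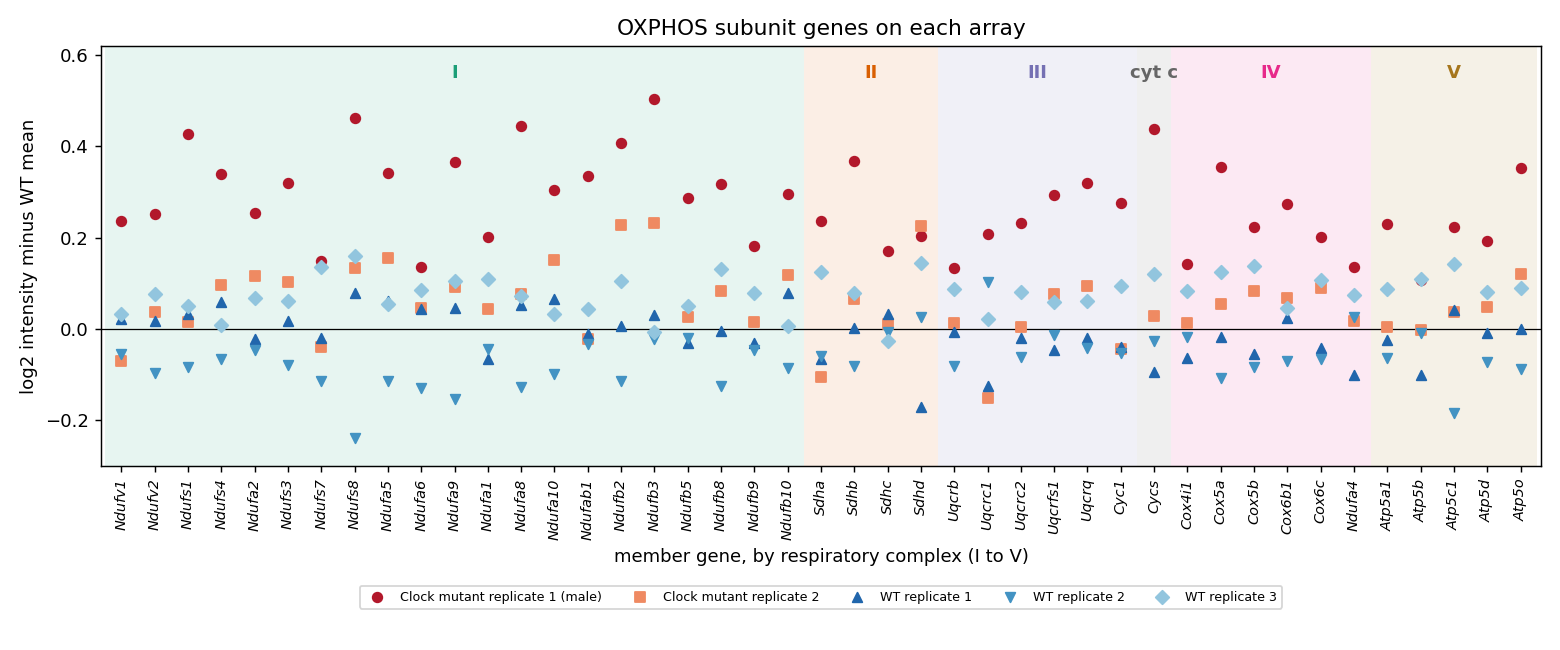
Log2 intensity of each array minus the WT mean of the same gene (vertical axis) for the 43 genes in order of complex (horizontal axis, shaded bands); each symbol is 1 mouse. *Clock* mutant replicate 1 (dark red circles) is the highest for 41 genes, and *Clock* mutant replicate 2 (orange squares) lies among the WT arrays for 26.

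Without *Clock* mutant replicate 1 the median over the 43 genes was 0.048 and 36 of them had a difference above 0, against 49.6% of all probe sets. Only *Ndufb3* (unadjusted p = 0.031) was then at an unadjusted p under 0.05, against 2.45% of all probe sets in the higher direction. That array was the only male mouse, so that sex and the animal cannot be told apart for it. It also had a 3' to 5' ratio of 54.1 for the pyruvate carboxylase control probe sets, against 19.1 to 28.1 on the other 4 arrays. The 5' probe set was dim, at 40.4 on that array and 57.5 to 97.3 on the others, which makes the ratio uncertain. The 3' to 5' ratio of *Gapdh* was 1.05 and 0.988 on the mutant arrays and 0.860 to 0.955 on the WT arrays. The part of RNA quality in the difference was not tested.

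**Figure D2:**
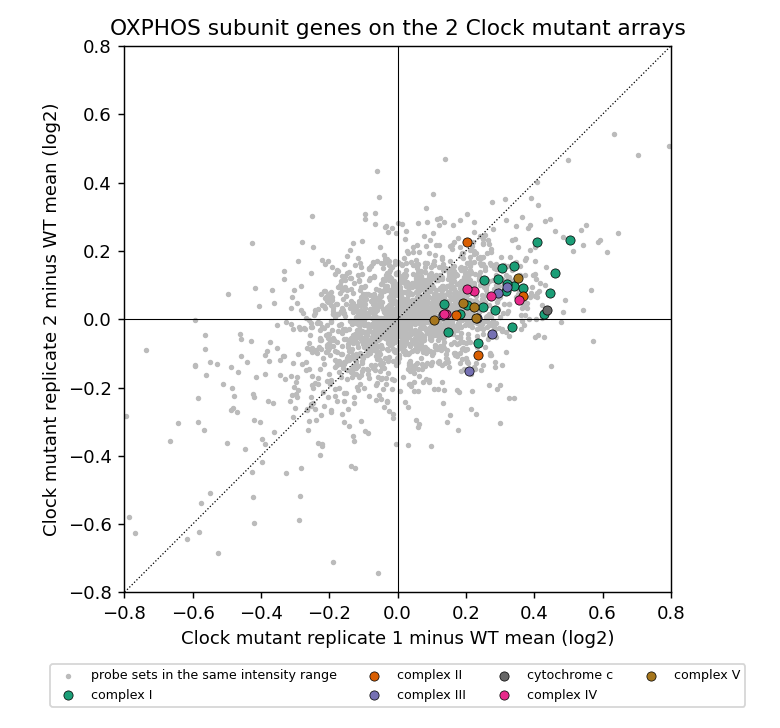
Log2 intensity minus the WT mean in *Clock* mutant replicate 1 (horizontal axis) and replicate 2 (vertical axis); coloured points are the 43 genes by complex, grey points are the 2030 probe sets in the same intensity range and the dotted line marks equal values. All 43 genes lie right of 0 and 42 lie below the dotted line; 18 grey points fall outside the axes.

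Complex I, the entry point for electrons from NADH, had the largest median of the complexes and the 3 largest differences of single genes. Its 21 genes had a median log2 difference of 0.21, and 9 of them were at an unadjusted p under 0.05. On the mutant arrays the complex I medians were 0.32 (replicate 1) and 0.084 (replicate 2), and on the WT arrays, in the order of their replicate numbers, 0.021, -0.085 and 0.068. Here *Clock* mutant replicate 1 was the highest array for all 21 genes, and the median of *Clock* mutant replicate 2 was above that of WT replicate 3 by a small margin.

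*Ndufb3*, an accessory subunit of the membrane arm, had the smallest p of the members. Its intensity was 5072 and 4203 in the mutant mice and 3652, 3523 and 3559 in the WT mice, each in the order of their replicate numbers, as for the genes that follow. The groups did not overlap, and the WT arrays lay close together. The log2 difference was 0.37 (SE 0.092, 95% interval 0.16 to 0.58, unadjusted p = 0.003, adjusted p = 0.259), or 29.1%.

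*Ndufb2*, another accessory subunit of the membrane arm, had intensities of 8289 and 7312 in the mutant mice and 6280, 5778 and 6724 in the WT mice. Both mutant arrays were above every WT array. The log2 difference was 0.32 (SE 0.089, 95% interval 0.12 to 0.52, adjusted p = 0.307). *Ndufs7*, a core subunit that carries an iron-sulphur cluster close to the ubiquinone site, had the largest p of the complex. Its intensity was 5513 and 4844 in the mutant mice and 4905, 4595 and 5465 in the WT mice. The groups overlapped, and the difference was 0.055 (adjusted p = 0.868). A dimmer probe set of *Ndufs7* differed by 0.26 (unadjusted p = 0.039, adjusted p = 0.442), so that its probe sets did not give the same size.

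The NADH dehydrogenase arm, which takes up the electrons, had a median difference of 0.18 over *Ndufv1* (0.083), *Ndufv2* (0.14), *Ndufs1* (0.22), *Ndufs4* (0.22) and *Ndufa2* (0.18). *Ndufv1* encodes the subunit that binds NADH and FMN, and *Ndufs1* the largest core subunit. *Ndufs4* (adjusted p = 0.450) and *Ndufa2* (adjusted p = 0.453) were the members of this arm at an unadjusted p under 0.05. The arm that leads to ubiquinone had a median of 0.22 over *Ndufs3* (0.21), *Ndufs7*, *Ndufs8* (0.30), *Ndufa5* (0.25), *Ndufa6* (0.091) and *Ndufa9* (0.23), with *Ndufs3* (adjusted p = 0.440) and *Ndufa5* (adjusted p = 0.40) at an unadjusted p under 0.05. *Ndufs8*, which carries further iron-sulphur clusters, had the widest spread of the members (SE 0.133, 95% interval -0.0028 to 0.60), and its WT intensities ran from 3739 to 4924.

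In the proton-pumping membrane arm, *Ndufa1* (0.12), *Ndufa8* (0.26) and *Ndufa10* (0.23) had a median of 0.23, and *Ndufa8* (adjusted p = 0.462) and *Ndufa10* (adjusted p = 0.395) were at an unadjusted p under 0.05. The B subunits and *Ndufab1*, the mitochondrial acyl carrier protein, had a median of 0.20. These were *Ndufb2*, *Ndufb3*, *Ndufb5* (0.16), *Ndufb8* (0.20), *Ndufb9* (0.099), *Ndufb10* (0.21, adjusted p = 0.450) and *Ndufab1* (0.16). The arms thus had medians between 0.18 and 0.23, a smaller range than that of the genes within any of them.

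Complex II, succinate dehydrogenase, is also an enzyme of the tricarboxylic acid (TCA) cycle, and its 4 genes had a median difference of 0.15 with 0 at an unadjusted p under 0.05. *Sdhb*, the iron-sulphur subunit, had intensities of 8264 and 6705 in the mutant mice and 6408, 6051 and 6766 in the WT mice. The first mutant mouse was the highest of the 5 and the other lay within the WT range. The difference was 0.22 (SE 0.098, adjusted p = 0.468). *Sdhd*, a membrane anchor, had intensities of 4502 and 4575 in the mutant mice and 3474, 3985 and 4325 in the WT mice. It was the only member for which *Clock* mutant replicate 2 was the highest array, and the groups did not overlap. The difference was 0.21 (SE 0.098, adjusted p = 0.472), or 0.23 with *Clock* mutant replicate 1 left out.

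*Sdha*, the flavoprotein subunit that oxidizes succinate, had intensities of 7339 and 5792 in the mutant mice and 5952, 5977 and 6791 in the WT mice. The mutant mice were thus the highest and the lowest of the 5. The difference was 0.066 (adjusted p = 0.858), and other probe sets of *Sdha* differed by 0.24 (unadjusted p = 0.047, adjusted p = 0.458) and by -0.66 (unadjusted p = 0.051, adjusted p = 0.464). The probe set at -0.66 was dim, with intensities of 93 to 264. *Sdhc*, the other membrane anchor, differed by 0.091.

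Complex III, which passes electrons from ubiquinol to cytochrome c, had a median difference of 0.12 over 6 genes. Without *Clock* mutant replicate 1 the median was 0.0085, and 4 of the 6 genes had a difference above 0. *Uqcrq*, a small accessory subunit, had intensities of 5679 and 4862 in the mutant mice and 4489, 4421 and 4753 in the WT mice. Both mutant arrays were above every WT array, and the difference was 0.21 (SE 0.086, unadjusted p = 0.040, adjusted p = 0.444). *Uqcrfs1*, the Rieske iron-sulphur protein, had intensities of 8142 and 7003 in the mutant mice and 6432, 6580 and 6912 in the WT mice. These groups did not overlap either, and the difference was 0.19 (SE 0.083, unadjusted p = 0.051, adjusted p = 0.464).

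*Uqcrc1*, a core protein of complex III, showed the smallest difference of the members. Its intensity was 8075 and 6297 in the mutant mice and 6408, 7512 and 7096 in the WT mice, so that here too the mutant mice were the extremes. The difference was 0.029 (SE 0.112, 95% interval -0.22 to 0.28, adjusted p = 0.945). *Uqcrc2* (0.12), *Cyc1* (0.12), which encodes cytochrome c1, and *Uqcrb* (0.073) lay between. *Cycs*, the mobile carrier, had intensities of 9765 and 7344 in the mutant mice and 6754, 7074 and 7830 in the WT mice. The first mutant mouse was above all others and the second lay within the WT range. The difference was 0.23 (SE 0.118, adjusted p = 0.514), or 0.027 without *Clock* mutant replicate 1, and the other tested probe sets of *Cycs* differed by -0.037 and 0.19.

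Complex IV, cytochrome c oxidase, had a median difference of 0.15 over 6 genes, all of which were highest in *Clock* mutant replicate 1. *Cox6b1*, a subunit on the cytochrome c side, had intensities of 14709 and 12756 in the mutant mice and 12379, 11590 and 12566 in the WT mice. The groups did not overlap, although replicate 2 stood only slightly above WT replicate 3. The difference was 0.17 (SE 0.079, adjusted p = 0.476). *Cox5a*, a matrix-side subunit, had intensities of 12521 and 10176 in the mutant mice and 9682, 9091 and 10676 in the WT mice. The groups overlapped, the difference was 0.20 (SE 0.102, adjusted p = 0.505), and other probe sets of *Cox5a* differed by -0.039 and 0.11.

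*Ndufa4*, named for complex I and now known as a subunit associated with complex IV, had intensities of 7120 and 6554 in the mutant mice and 6040, 6599 and 6826 in the WT mice. The second mutant mouse was below 2 of the 3 WT mice. The difference was 0.076 (adjusted p = 0.757), the smallest of the complex, and counting the gene in complex I instead gave medians of 0.204 for complex I and 0.153 for complex IV. *Cox4i1* (0.078), *Cox5b* (0.15) and *Cox6c* (0.15) were the other measured subunits.

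Complex V, ATP synthase, had a median difference of 0.12 over 5 genes. *Atp5o*, which encodes the stalk subunit that joins the catalytic head to the membrane part, had intensities of 9753 and 8304 in the mutant mice and 7631, 7180 and 8123 in the WT mice. Both mutant arrays were above every WT array. The difference was 0.24 (SE 0.089, unadjusted p = 0.026, adjusted p = 0.401), while the other probe set of *Atp5o* differed by -0.11 (adjusted p = 0.765).

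*Atp5d*, the delta subunit of the rotor stalk, had intensities of 10298 and 9315 in the mutant mice and 8957, 8564 and 9536 in the WT mice, with a difference of 0.12 (SE 0.077, adjusted p = 0.595). The groups overlapped through WT replicate 3, and the other probe set of *Atp5d* differed by -0.016 (adjusted p = 0.952). *Atp5b*, the catalytic beta subunit, had intensities of 13968 and 12951 in the mutant mice and 12092, 12891 and 13985 in the WT mice, a difference of 0.053 (adjusted p = 0.839). It was the only gene of the members for which a WT array, replicate 3, was the highest of the 5. *Atp5a1* (0.12), the alpha subunit, and *Atp5c1* (0.13), the gamma subunit, completed the head and its shaft.

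**Figure D3:**
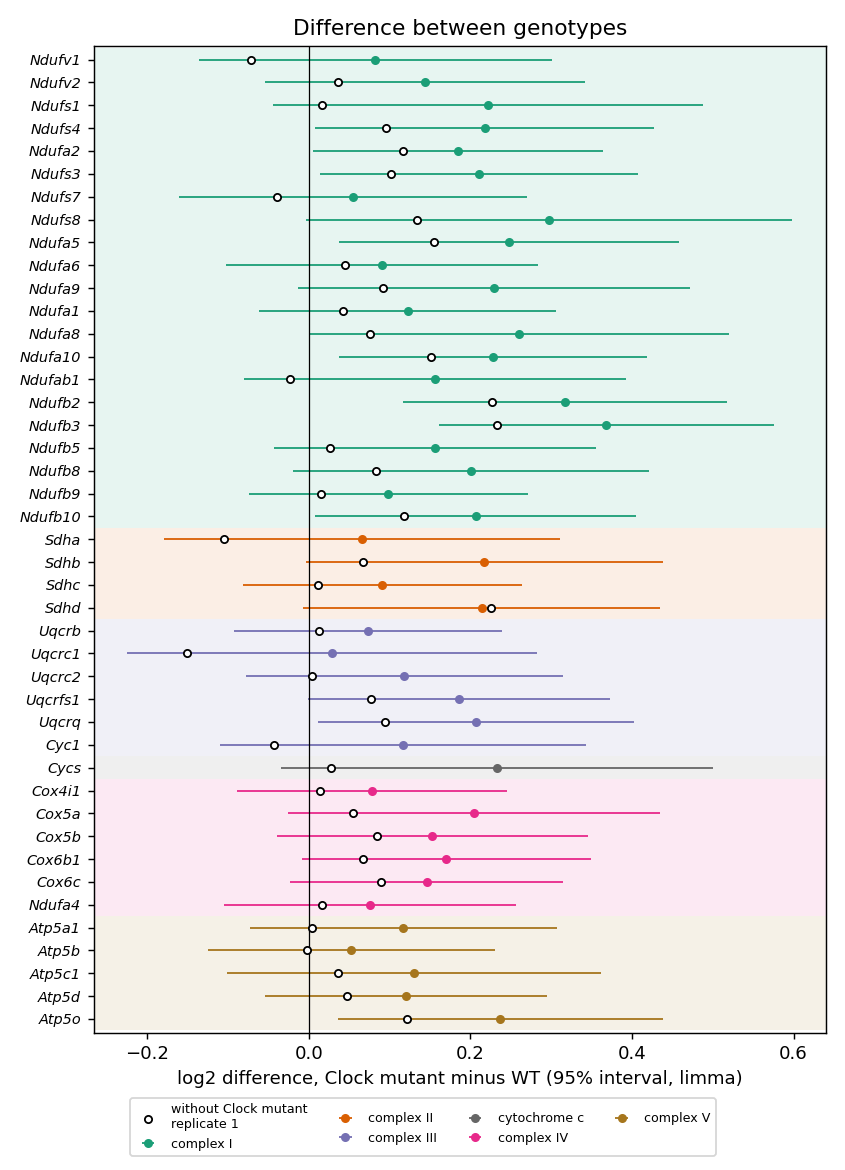
Log2 difference, *Clock* mutant minus WT, of the 43 genes by complex (filled points, with 95% intervals from limma); open points leave out *Clock* mutant replicate 1. The intervals of 11 genes lie above 0, and 7 open points lie below 0.

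In every complex the median was highest in *Clock* mutant replicate 1 and lowest in WT replicate 2. The median differences ran from 0.12 for complexes III and V to 0.21 for complex I, a narrower range than the gap between the mutant mice. The median of *Clock* mutant replicate 1 was 0.22 in complex II, 0.25 in complex III, 0.21 in complex IV and 0.22 in complex V. That of *Clock* mutant replicate 2 was 0.039, 0.0085, 0.061 and 0.037. In these 4 complexes WT replicate 3, at 0.10, 0.072, 0.095 and 0.089, was above *Clock* mutant replicate 2. The differences between complexes were not tested.

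The members had 52 other probe sets over 27 genes, of which 43 passed the filter, and 16 genes had a single probe set. Of the 43, 34 had a difference above 0, with a median of 0.19. At an unadjusted p under 0.05 there were 12, all higher, against 4.09% of all probe sets, and 0 passed after adjustment. Relative to the WT mean their median was 0.30 in *Clock* mutant replicate 1 and 0.077 in replicate 2. The 9 with a difference below 0 included probe sets of *Ndufs8* (-0.27), *Ndufb2* (-0.28), *Sdhd* (-0.14) and *Cox6c* (-0.12). Those of *Ndufs8*, *Ndufb2* and *Sdhd* were dim, with intensities of 81 to 281, and that of *Cox6c* lay at 5235 to 6233. The remaining dimmer probe sets of *Ndufs8* differed by 0.14 to 0.41.

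Other nuclear subunits of the complexes, which were not among the members, had their array medians in the same order as the members. Of 34 listed, 30 were measured and 29 tested, and 25 of these had a difference above 0, with a median of 0.18. At an unadjusted p under 0.05 there were 9, all higher, against 4.09% of all probe sets, and 0 passed the adjusted threshold. *Atpif1*, which encodes an inhibitor of ATP synthase, had intensities of 2908 and 2773 in the mutant mice and 2496, 2286 and 2103 in the WT mice, and differed by 0.31 (adjusted p = 0.330). *Ndufv3*, a complex I subunit, differed by 0.28 (adjusted p = 0.356). *Cox7c* was the furthest below 0 (-0.32, unadjusted p = 0.115). The medians of the list were 0.27 and 0.074 on the mutant arrays, and without the first of them 24 genes were above 0, against 49.6% of all probe sets.

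The muscle-type subunits of complex IV had a median difference of 0.41, with *Clock* mutant replicate 1 again the highest array for all 3. *Cox7a1* had intensities of 3763 and 2434 in the mutant mice and 2011, 2061 and 2507 in the WT mice (difference 0.47, unadjusted p = 0.022, adjusted p = 0.389). *Cox8b* had intensities of 6780 and 5269 in the mutant mice and 4031, 4143 and 5489 in the WT mice (difference 0.41, unadjusted p = 0.022, adjusted p = 0.389). For both genes *Clock* mutant replicate 2 was below WT replicate 3. *Cox6a2* differed by 0.21 (adjusted p = 0.504), and its groups overlapped as well. Without *Clock* mutant replicate 1 the median was 0.16, with 0 of the 3 at an unadjusted p under 0.05 in limma.

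Of the subunits encoded in the mitochondrial genome only *ND5*, of complex I, could be read. It had intensities of 18421 and 18854 in the mutant mice and 19078, 16850 and 18636 in the WT mice, and differed by 0.037 (adjusted p = 0.881). For this gene WT replicate 1 was the highest array.

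Assembly factors, which insert cofactors and join subunits, had a median difference of 0.12 over 30 genes. Of these 25 were above 0 and 3 were at an unadjusted p under 0.05, all higher, with *Cox19* (0.40, adjusted p = 0.352), a factor in copper delivery to complex IV, and *Sdhaf4* (0.31, adjusted p = 0.376), an assembly factor of complex II, at the smallest p. The mitochondrial ribosome, which translates the mitochondrially encoded subunits, had a median of 0.15 over 25 proteins, with 22 above 0 and 1, *Mrps12* (0.24, adjusted p = 0.440), at an unadjusted p under 0.05. TCA cycle enzymes had a median of 0.11 over 15 genes, with 14 above 0 and *Cs*, citrate synthase (0.16, adjusted p = 0.456), and *Idh3a*, of isocitrate dehydrogenase (0.27, adjusted p = 0.458), at an unadjusted p under 0.05. Over all probe sets 4.09% were higher at that level in the same fit, and the count in the mitochondrial ribosome was near that share. Glycolytic genes had a median of 0.029 over 14 genes with 8 above 0 and 0 at an unadjusted p under 0.05 in limma, the smallest p being those of *Ldhb* (0.16, adjusted p = 0.505) and *Hk2* (-0.16, adjusted p = 0.605). In *Clock* mutant replicate 1 the medians of these lists were 0.25, 0.23, 0.21 and 0.13, and in replicate 2 they were 0.082, 0.032, -0.014 and -0.089. Without *Clock* mutant replicate 1 the genes above 0 were 20 of 30 assembly factors, 19 of 25 ribosomal proteins, 6 of 15 TCA cycle enzymes and 3 of 14 glycolytic genes. In that fit 49.6% of all probe sets were above 0.

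Regulators of mitochondrial biogenesis differed in both directions. Of 12 genes, 5 had a difference above 0, and the median was -0.037. At an unadjusted p under 0.05, 1 was higher, against 4.09% of all probe sets, and 0 passed the adjusted threshold. At the same level 1 was lower, a direction for which no share of all probe sets is given here. *Ppargc1b*, a coactivator of mitochondrial genes, had intensities of 815 and 709 in the mutant mice and 492, 484 and 489 in the WT mice. The groups did not overlap, the difference was 0.64 (SE 0.116, adjusted p = 0.126), and 0.54 when *Clock* mutant replicate 1 was left out. *Ppargc1a*, the related coactivator, differed by 0.0057 (adjusted p = 0.991).

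*Yy1*, which encodes the factor whose motif was counted above, had intensities of 1933 and 1947 in the mutant mice and 2097, 2559 and 2238 in the WT mice, both mutants below every WT mouse (difference -0.24, unadjusted p = 0.040, adjusted p = 0.444). *Esrra*, a nuclear receptor partner of these coactivators, had a difference of -0.28 (adjusted p = 0.481), also with both mutants below the WT mice. *Nrf1* (0.022), *Gabpa* (-0.12), *Gabpb1* (-0.043) and *Pprc1* (-0.18) had adjusted p-values of 0.961, 0.659, 0.938 and 0.761. The factors that copy and transcribe the mitochondrial genome, *Tfam* (0.10), *Tfb1m* (0.0035), *Tfb2m* (-0.031) and *Polrmt* (-0.051), had adjusted p-values from 0.739 to 0.995.

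**Figure D4:**
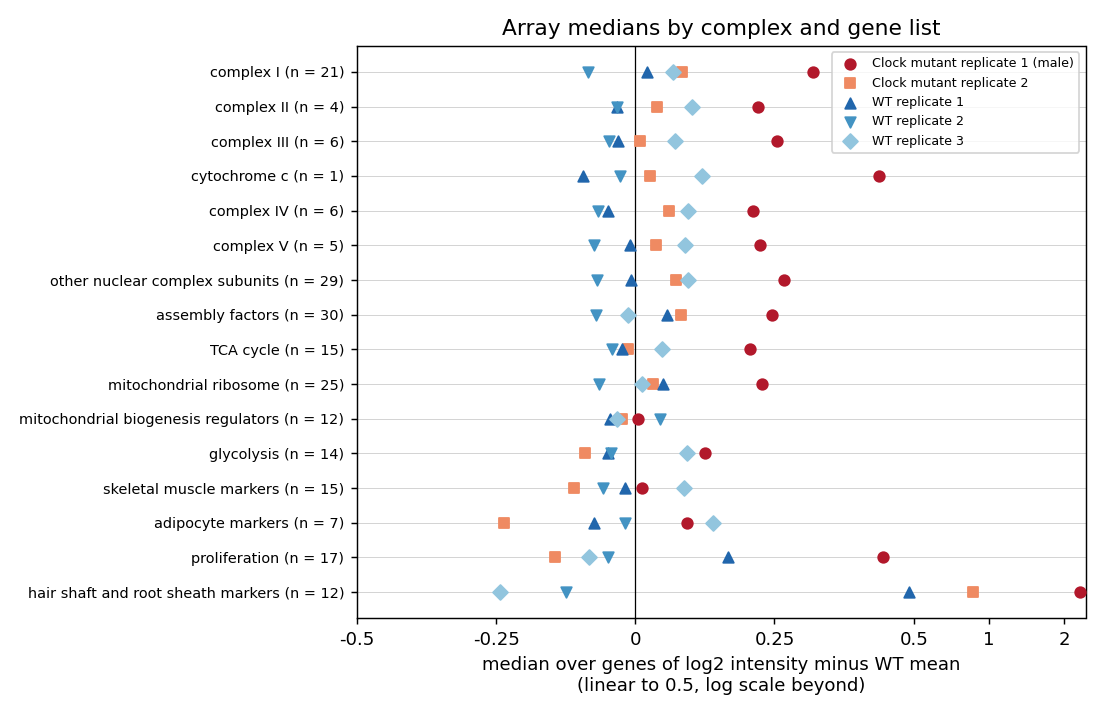
Median over genes of log2 intensity minus the WT mean on each array (horizontal axis, linear to 0.5 and logarithmic beyond) for the complexes and the other gene lists (vertical axis, number of tested genes in brackets); each symbol is 1 mouse. The dark red circle, *Clock* mutant replicate 1, is the rightmost symbol for every complex and lies at 2.30 for hair shaft and root sheath genes.

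Markers of other cell types were read on the same arrays, and 0 markers passed the adjusted threshold. Skeletal muscle markers had a median difference of -0.028, with 5 of 15 above 0, against 46.5% of all probe sets. Without *Clock* mutant replicate 1 it was 1 of 15, against 49.6%. Their summed intensity was 254715 and 236414 in the mutant mice and 242689 to 267183 in the WT mice. *Mb*, myoglobin, had intensities of 5701 and 3057 in the mutant mice and 2900, 2417 and 3278 in the WT mice (difference 0.55, unadjusted p = 0.037, adjusted p = 0.440). *Myh2*, the fast oxidative myosin, differed by -0.53 (unadjusted p = 0.019, adjusted p = 0.376). Relative to the WT mean *Myh2* was at -0.87 in *Clock* mutant replicate 1 and at -0.19 in replicate 2. Adipocyte markers had a median of -0.063, with 2 of 7 above 0. *Cidec* (-0.36, adjusted p = 0.339) and *Fabp4* (-0.18, adjusted p = 0.416) were lower at an unadjusted p under 0.05. No share of all probe sets is given here for the lower direction, so this count cannot be set against one. The mutant mice differed here too, with adipocyte medians of 0.092 in replicate 1 and -0.24 in replicate 2, against -0.074, -0.019 and 0.14 in the WT mice. Without *Clock* mutant replicate 1, 1 of 7 was above 0, against 49.6% of all probe sets. Of 6 brown adipocyte markers 4 were tested, with a median of 0.10, a range of -0.19 to 0.51, 2 above 0 and 0 at an unadjusted p under 0.05 in limma. Their medians were -0.051 and 0.20 in the mutant mice, the reverse of the order in the OXPHOS genes. *Ucp1*, the defining uncoupling protein, was too dim to test, with a mean intensity of 5.99.

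Hair shaft and root sheath markers, which mark growing follicles, had the widest gap between that array and the rest. Of 18 listed, 17 were measured and 12 tested, and their median difference was 1.64, with 11 above 0 and 8 higher at an unadjusted p under 0.05, against the 4.09% of all probe sets. Without *Clock* mutant replicate 1 the median was 0.86, with 8 above 0 and 1 at that level, against 2.45%. Summed over the 17 genes the intensity was 10787 and 2302 in the mutant mice and 2340, 1225 and 1286 in the WT mice. *Krt28*, an inner root sheath keratin, differed by 1.54 (adjusted p = 0.181), and *Tchh*, trichohyalin, by 1.74 (adjusted p = 0.310). Of 17 proliferation genes 13 were above 0, and the array medians were 0.45 and -0.14 in the mutant mice and 0.17, -0.050 and -0.083 in the WT mice. With the first mutant mouse left out, 2 of the 17 were above 0, against 49.6% of all probe sets.

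Epidermis, fibroblast, macrophage and endothelial markers had medians between -0.014 and 0.043, and all 8 fibroblast and 9 of 10 epidermal markers passed the filter. At an unadjusted p under 0.05, *Krt1* (0.31, adjusted p = 0.340), *S100a4* (0.37, adjusted p = 0.153) and *Tek* (0.41, adjusted p = 0.254) were higher and *Flg* (-0.26, adjusted p = 0.376) was lower. The summed intensity of the 21 complex I genes, for comparison, was 135153 and 115651 in the mutant mice and 110792, 103645 and 116081 in the WT mice. The part of hair follicle, muscle and fat composition in the difference of the OXPHOS genes was not tested.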

How the data were processed

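Expression was measured in dorsal skin of 5 mice, 1 Affymetrix array each. The deposited values are signal intensities per probe set, made by the authors with MAS5, which scales each array by a single factor; array medians lay between 106.0 and 118.1 and the 2% trimmed mean was 500.0. The MAS5 version is not given in the sources used here. Arrays give no read depth, and precision is limited by their number. Genes were named from the platform annotation, where 34945 of 45101 probe sets had 1 symbol; all 43 members matched RefSeq (GRCm38.p6) by gene ID.

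Log2 was taken of the deposited intensities, after raising the 2441 values below 1 to that floor. Control probe sets (64) and probe sets under the 40th percentile of mean intensity (56.7) were left out, and 27022 were tested with limma 3.58.1 in R 4.3.3 (lmFit, eBayes with an intensity trend, two-sided), adjusted by Benjamini-Hochberg over all of them. The step was tested on simulated data. The Cyber-T style alternative used a window of 101 probe sets and a prior weight of 10. The members, the other gene lists and the alternatives were chosen with earlier results of these data known, and no set test was made. In each complex, array values are given for the 2 members with the smallest p and the member with the largest, and for *Cycs*; in other lists the text names up to 2 genes with the smallest p, all muscle-type subunits and all biogenesis regulators. *Cox7c*, the dimmer probe sets and the arms of complex I were singled out after their values were seen.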

Additional observations from a re-analysis of the deposited data

How the results depend on the processing

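Over 14 alternatives 0 of the 43 genes passed the adjusted threshold, and the lowest adjusted p was 0.0532, for *Ndufb3* without *Clock* mutant replicate 2 (0.259 with all arrays). With each array centred on its median the differences were larger, with a median of 0.245 over all members. It was 0.295 in complex I, 0.241 in complex II, 0.206 in complex III and 0.209 in complex V. The median over all probe sets moved from -0.017 to 0.071. Centring adds the same amount to every difference, those of complex IV included. The members therefore had to stand 0.17 above all probe sets on either scaling, which tests nothing. Quantile normalization, which gives every array the same distribution of intensities, can change that gap, and there it was 0.159. The medians were then 0.169 over the members and 0.0095 over all probe sets. Leaving out each mouse in turn gave medians of 0.048 to 0.273 over all members, 0.084 to 0.318 in complex I, 0.039 to 0.220 in complex II, 0.0085 to 0.254 in complex III, 0.061 to 0.212 in complex IV and 0.037 to 0.224 in complex V, in each case lowest without *Clock* mutant replicate 1 and highest without replicate 2.

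The count of members at an unadjusted p under 0.05, all higher, is given here with the share of all probe sets that were higher at that level in the same fit. It was 11 (4.09%), and 23 (8.72%) with median centring, 2 (3.17%) without the intensity trend and 1 to 27 when a mouse was left out. It was 1 (2.45%) without *Clock* mutant replicate 1, 27 (6.32%) without replicate 2, and 6 (5.14%), 2 (2.2%) and 20 (2.91%) without WT replicates 1, 2 and 3. The count of probe sets past the adjusted threshold was 24, and 10 without a filter, 0 without the trend (2631 unadjusted), 65 in the Cyber-T style test and 0 to 201 when a mouse was left out, with 13 without *Clock* mutant replicate 1, 201 without replicate 2 and 0 without WT replicates 2 or 3 (1581 and 2194 unadjusted). Arrays of the 2 genotypes with the same replicate number did not pair in the labels, and their deviations correlated at 0.008 and 0.099. A fit with the replicate block, to which WT replicate 3 adds nothing, gave 27 members (3.76%), 106 probe sets and a median of 0.202. With the mean of its probe sets, which includes the dim one at -0.66, *Sdha* was at -0.12. When a mouse was left out, the lowest and highest values were -0.0017 and 0.11 for *Atp5b*, -0.043 and 0.28 for *Cyc1*, -0.023 and 0.34 for *Ndufab1*, -0.039 and 0.15 for *Ndufs7* (-0.0027 without WT replicate 2), -0.071 and 0.24 for *Ndufv1*, -0.10 and 0.24 for *Sdha*, and -0.15 and 0.21 for *Uqcrc1* (-0.034 without WT replicate 1). These were the only reversals, 10 of 602 values. The cause of these changes was not tested. The other probe sets of the members, an alternative chosen after seeing the data, had a median of 0.186.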
